A study of Homo sapiens with 6 samples.

Results

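The genes described here encode the organic ion carriers and ABC proteins of HK-2 cells, a line of human kidney proximal tubule epithelium that was immortalised with papillomavirus oncogenes. They were chosen by symbol alone: all genes named SLC22A with a number, SLC47A1 and SLC47A2, all SLCO genes, and all ABCA, ABCB, ABCC, ABCD and ABCG genes with a number. Of the 35035 genes in the expression table, 77 carried such a name. SLC22A6 and ABCD2 had no row and were not analysed here. ABCC13 is annotated as a pseudogene and was kept because its symbol meets the rule.

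Carriers of the SLC22 and SLCO families move drugs, toxins, hormones, urate and carnitine across cell membranes without using ATP, whereas ABC proteins use ATP to move their substrates, most often out of the cell or into an organelle. In the proximal tubule, carriers of the basolateral membrane take organic ions up from the blood, and pumps and exchangers of the brush border pass them into the urine. Other ABC proteins load cholesterol and phospholipids onto apolipoproteins, carry fatty acids into peroxisomes or serve mitochondria and lysosomes.

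HK-2 cells had been transfected with a plasmid that overexpresses circAASS, a circular RNA named after the gene AASS, or with the empty vector, and each group had 3 libraries. Cells of both groups went through 24 h of hypoxia at 1% oxygen and 12 h of reoxygenation before harvest, so the comparison is of 2 plasmids after hypoxia and reoxygenation, and no cells kept at normal oxygen were analysed here. The labels name no separate cultures or days, so that the p-values measure only the spread between these libraries, which may be technical. Values are RPKM, reads scaled to gene length and library total, and each is a mean over all cells of a dish: fewer cells that express a gene and less RNA per cell cannot be told apart.

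Library totals were 47384879 to 58179563 reads with the circAASS plasmid and 45148425 to 52470055 reads with empty vector. circAASS itself was matched to no row and has no value here. The linear gene AASS, which does not check the plasmid, had 0.836, 0.977 and 0.827 RPKM with circAASS and 1.20, 1.38 and 1.10 RPKM with vector (limma adjusted p = 0.0679). Of 19 proximal tubule markers, 8 had a mean of at least 1 RPKM and 8 were under 0.1 RPKM, among them LRP2, CUBN, SLC34A1, AQP1 and HNF4A; their sum was 114 to 124 RPKM with circAASS and 105 to 106 RPKM with vector. Of these markers 11 were tested. With circAASS 3 rose, PAX8 (42.3 RPKM with circAASS, 25.0 with vector) and CDH2 (44.6 with circAASS, 34.6 with vector) among them. A further 4 fell: CDH6 (4.89 with circAASS, 13.5 with vector), GGT1 (7.11 with circAASS, 9.25 with vector), SLC5A2 (1.87 with circAASS, 3.85 with vector) and SLC4A4 (1.21 with circAASS, 2.20 with vector). Overlapping genes make the reads of SLC5A2 uncertain. Of 6 general epithelium markers, all tested, 5 had a mean of at least 1 RPKM and 1 was under 0.1 RPKM. With circAASS 3 of these rose and 1 fell. Of all tested genes 16.0% rose and 16.3% fell. Markers of the distal nephron, podocytes, endothelium and leukocytes were at or near 0 apart from CD68, and of 5 fibroblast markers COL1A1 alone passed 1 RPKM. The reads of CD68 are uncertain, because other genes cover 85.8% of its exon bases. The small nuclear RNA RN7SK had 55.6, 135 and 190 RPKM with circAASS and 44.7, 34.1 and 37.0 RPKM with vector (limma adjusted p = 0.0181), and the part of this difference in the results below was not tested. Reads of RN7SK are uncertain too, because RF00100 covers 100% of its exon bases.

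The members spanned a wide range of levels. In the mean over all 6 libraries, 3 members were above 10 RPKM, 20 were at or above 1 RPKM and 41 were under 0.1 RPKM. The 4 highest by mean RPKM were ABCB1, the multidrug pump P-glycoprotein; ABCB9, a lysosomal peptide transporter; ABCA1, which loads cholesterol onto apolipoprotein A-I; and SLCO4A1, a carrier of thyroid hormone and conjugated steroids. The RPKM of all members summed to 111, 111 and 117 with circAASS and to 130, 128 and 125 with vector. ABCB1 made up 17.4% to 18.1% of this sum with circAASS and 19.5% to 21.4% with vector, and SLCO4A1 made up 9.85% to 12.1% with circAASS and 3.80% to 4.41% with vector.

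**Figure D1:**
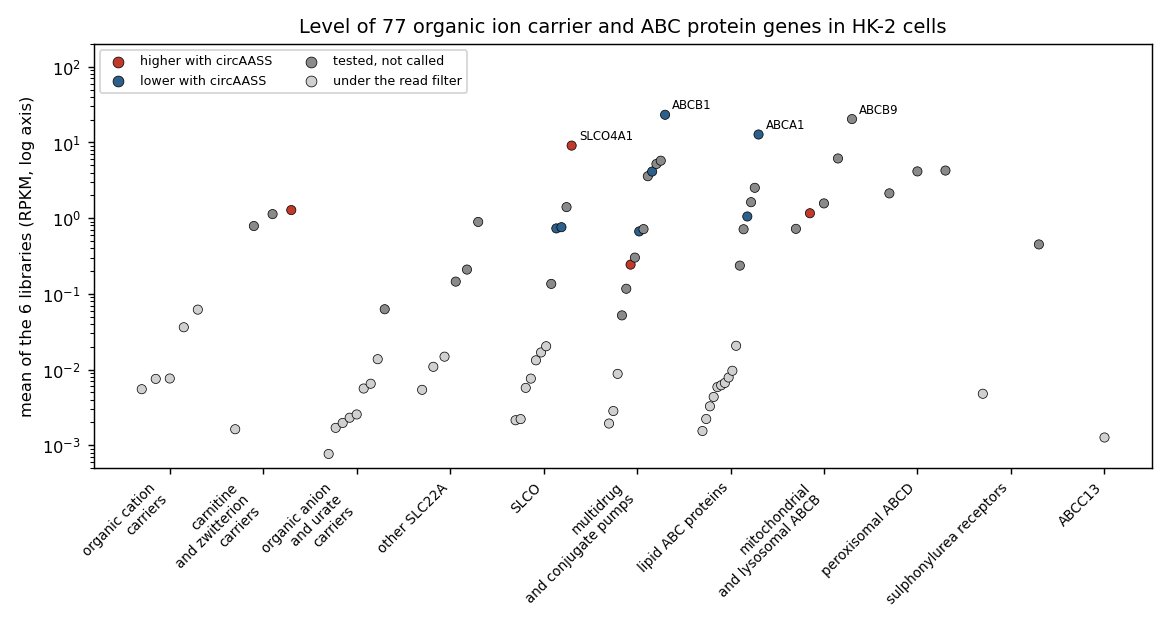
Each point is 1 of the 77 genes, placed by role along the horizontal axis and by its mean RPKM over the 6 libraries on a log vertical axis, coloured by its call. The organic cation carriers all lie below 0.1 RPKM, and ABCB1, ABCB9 and ABCA1 are the 3 genes above 10 RPKM.

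Genes were tested if 3 or more libraries held 10 or more reads, scaled to a library of median size, and all libraries together held 15. Of the 77 members 38 were tested, and each of the other 39 had a mean under 0.1 RPKM. With circAASS 4 members rose, SLCO4A1, ABCC2, SLC22A4 and ABCB6, and 7 fell, ABCC3, ABCC6, SLCO4C1, SLCO2A1, ABCA2, ABCA1 and ABCB1 (limma, adjusted p under 0.05). These 11 are 28.9% of the members tested, where 32.3% of all 19350 tested genes were called. By direction, 10.5% of members rose, against 16.0% of all genes, and 18.4% fell, against 16.3% of all genes. The RPKM of the groups did not overlap in 18 members (47.4%), and in 47.5% of all tested genes. The share of members called was thus close to that of the table as a whole. The median log2 fold change, circAASS minus vector, was -0.08 over the tested members and -0.01 over all tested genes. When RPKM were scaled by library size alone, 2 members were called higher and 11 lower, and the median was -0.15 over the tested members and -0.08 over all genes.

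**Figure D2:**
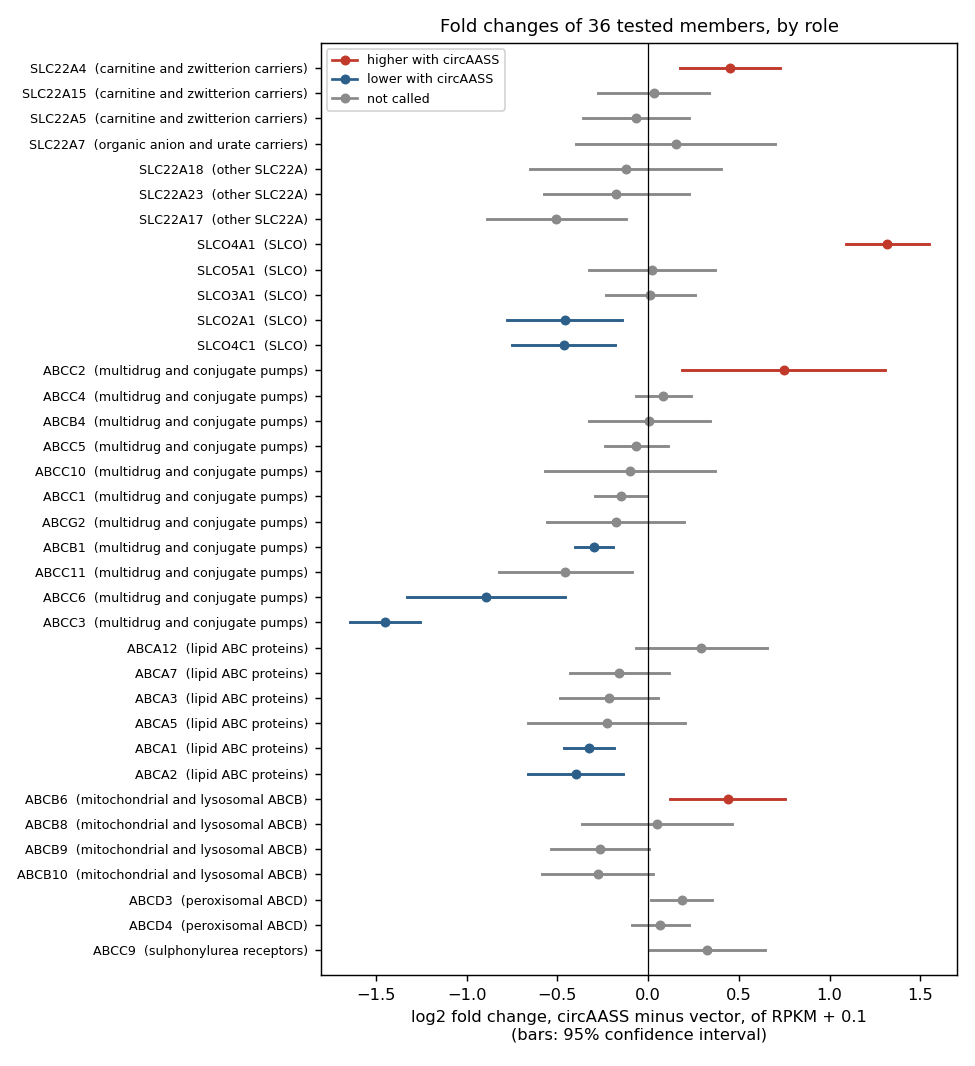
Log2 fold changes of RPKM + 0.1, circAASS minus vector, are drawn for 36 of the 38 tested members ordered by role; points are estimates from 3 libraries a group and bars are 95% confidence intervals. SLCO4A1 lies farthest to the right at 1.32 and ABCC3 farthest to the left at -1.45.

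The classical carriers of organic cations were near the lower limit of detection. SLC22A2 and SLC22A3 take up organic cations, and SLC47A1 and SLC47A2 exchange them for protons at the brush border. None of the 5 members of this role passed the read filter, and the highest value of any was 0.126 RPKM, or 20 reads, of SLC22A3. SLC22A2, the main basolateral organic cation carrier of human kidney, had 0.00676, 0 and 0.0137 RPKM with circAASS and 0, 0.00635 and 0.00618 RPKM with vector. Where it had no read, a level of up to 0.0167 RPKM in circAASS library 2 and 0.0215 RPKM in vector library 1 would be allowed. This limit is 3 read pairs a library, or 6 reads because mates were mostly counted separately, and covers counting error only. SLC47A1 had 0.00729, 0.00601 and 0.00738 RPKM with circAASS and 0.00775, 0 and 0.0167 RPKM with vector. At this depth no difference in either gene was detectable.

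The organic anion and urate carriers were as low. Of 9 members of this role only SLC22A7, a carrier of cyclic nucleotides and other anions, passed the filter, with 0.0591, 0.0487 and 0.0957 RPKM with circAASS and 0.0251, 0.0333 and 0.113 RPKM with vector. Its groups overlapped, and the 95% confidence interval of its log2 fold change ran from -0.40 to 0.70 (limma adjusted p = 0.651). SLC22A8, which takes up drugs and other organic anions from the blood side of the tubule, had 0 reads in 5 libraries and 2 reads, 0.00460 RPKM, in vector library 2. By the same limit, a count of 0 allows up to 0.0121 to 0.0148 RPKM in the circAASS libraries and up to 0.0134 to 0.0156 RPKM in the vector libraries that had none. The urate exchanger SLC22A12 also had no more than 2 reads in any library.

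The carnitine and zwitterion carriers held the SLC22 genes of highest mean RPKM, SLC22A4 and SLC22A15. SLC22A4 (chr5:132294443-132344206, plus strand, GRCh38), a carrier of the antioxidant ergothioneine, had 1.35, 1.46 and 1.56 RPKM with circAASS and 0.956, 1.23 and 1.11 RPKM with vector. All 3 circAASS libraries lay above all 3 vector libraries. The means were 1.46 ± 0.107 RPKM with circAASS and 1.10 ± 0.135 RPKM with vector (SD, n = 3 each), a log2 fold change of 0.45 with SE 0.12 (limma adjusted p = 0.0233). The call was lost without circAASS library 2 or 3 or vector library 1 or 3, with adjusted p of 0.0628 to 0.0766. MIR3936HG lies antisense over 8.74% of its exon bases. SLC22A5, the carnitine carrier, had 0.737, 0.712 and 0.789 RPKM with circAASS and 0.915, 0.771 and 0.799 RPKM with vector. Its groups overlapped, and its log2 fold change was between -0.36 and 0.22 at 95% confidence (adjusted p = 0.715). SLC22A15 averaged 1.11 ± 0.0964 RPKM with circAASS and 1.15 ± 0.143 RPKM with vector, and SLC22A16 had no more than 2 reads in a library.

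Of the other SLC22A genes, SLC22A17 lay just outside the threshold. This receptor for the iron-binding protein lipocalin-2 had 0.809, 0.755 and 0.543 RPKM with circAASS and 1.12, 1.04 and 1.08 RPKM with vector, and the groups did not overlap. Its log2 fold change was -0.51 with SE 0.16 (limma adjusted p = 0.0508). ABCC2 lay just inside, with an adjusted p of 0.0482. SLC22A18 and SLC22A23 had means of 0.126 to 0.231 RPKM in either group and were not called.

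The SLCO family held the largest rise among the members. SLCO4A1 (chr20:62642445-62685785, plus strand) had 11.0, 13.5 and 14.1 RPKM with circAASS, from 2132, 3172 and 2702 reads, and 5.74, 4.89 and 5.40 RPKM with vector, from 1050, 1010 and 1147 reads. The lowest circAASS library stood well above the highest vector library. The means were 12.8 ± 1.64 RPKM with circAASS and 5.34 ± 0.429 RPKM with vector (SD, n = 3 each), a log2 fold change of 1.32 with SE 0.10 (limma adjusted p = 0.000273). The antisense gene SLCO4A1-AS1 overlaps 8.54% of the exon bases of SLCO4A1 and was looked up after the values were seen. It had 4.10, 4.99 and 4.48 RPKM with circAASS and 1.95, 1.30 and 1.62 RPKM with vector, a log2 fold change of 1.51 with SE 0.15 (limma adjusted p = 0.000636). As 22.6% of its own exon bases overlap SLCO4A1 and the strand setting of the counting is not given in the sources used here, reads of the pair may be shared, and the value of SLCO4A1-AS1 is uncertain.

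A pair of other SLCO genes moved the opposite way, at much lower RPKM. SLCO4C1 (chr5:102233986-102296549, minus strand), a carrier of digoxin and thyroid hormone in human proximal tubules, had 0.555, 0.593 and 0.593 RPKM with circAASS and 0.872, 0.941 and 0.836 RPKM with vector. The groups did not overlap, and the log2 fold change was -0.47 with SE 0.12 (limma adjusted p = 0.0239). SLCO2A1 (chr3:133928145-134052184, minus strand), which takes up prostaglandins, had 0.521, 0.589 and 0.711 RPKM with circAASS and 0.897, 0.954 and 0.884 RPKM with vector. All its circAASS libraries were below its vector libraries, with a log2 fold change of -0.46 and SE 0.14 (adjusted p = 0.0378). Both calls were fragile: that of SLCO4C1 was lost with any 1 of the 6 libraries left out, with adjusted p of 0.0514 to 0.0905, and that of SLCO2A1 with any 1 library other than circAASS library 3 left out, with adjusted p of 0.0834 to 0.117. SLCO3A1 averaged 1.37 ± 0.134 RPKM with circAASS and 1.43 ± 0.0565 RPKM with vector, SLCO5A1 averaged 0.133 ± 0.00898 RPKM with circAASS and 0.137 ± 0.0215 RPKM with vector, and neither was called. The other 7 SLCO members, the liver carriers SLCO1B1 and SLCO1B3 among them, were under the read filter and reached at most 0.0434 RPKM.

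**Figure D3:**
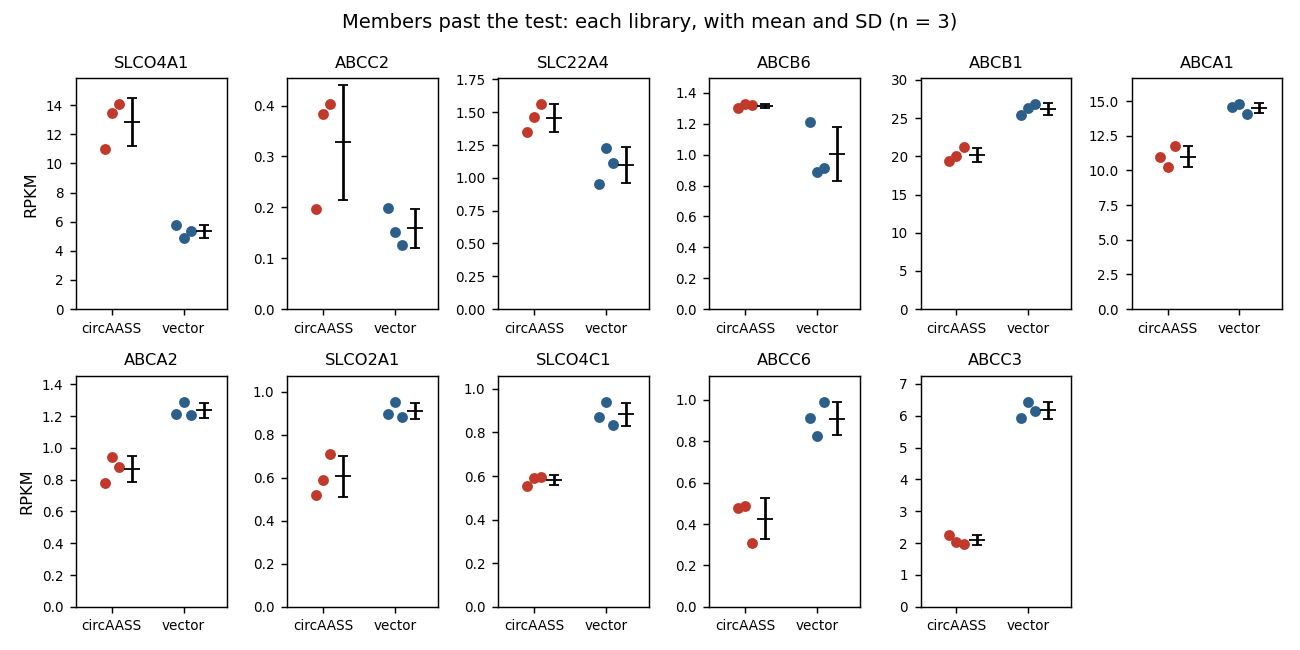
RPKM of the 11 called members in each library, circAASS left and vector right, with the mean and SD of 3 libraries beside the points; each panel has its own linear axis from 0. The groups are separate in every panel except that of ABCC2, where circAASS library 1 lies within the vector range.

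Among the pumps of drugs and conjugates, ABCC3 showed the largest fall of all members. ABCC3 (chr17:50634777-50692252, plus strand) exports glucuronides and other conjugates through the basolateral membrane. It had 2.26, 2.03 and 1.97 RPKM with circAASS, from 1042, 1135 and 896 reads, and 5.92, 6.44 and 6.14 RPKM with vector, from 2571, 3157 and 3099 reads. The groups were far apart, and values within each group were close. The means were 2.09 ± 0.154 RPKM with circAASS and 6.17 ± 0.258 RPKM with vector (SD, n = 3 each), a log2 fold change of -1.45 with SE 0.08 (limma adjusted p = 0.000124). No other GENCODE 29 gene overlaps its exons.

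ABCC2 (chr10:99782640-99852594, plus strand), which exports conjugates through the apical membrane, moved the other way at a low level. It had 0.197, 0.383 and 0.403 RPKM with circAASS and 0.199, 0.151 and 0.125 RPKM with vector. circAASS libraries 2 and 3 were high, whereas circAASS library 1 fell within the range of the vector libraries. Its log2 fold change was 0.75 with SE 0.24 (limma adjusted p = 0.0482). The call was lost with any 1 library other than circAASS library 1 left out, with adjusted p of 0.0678 to 0.147, and was 0.0166 without circAASS library 1.

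ABCC6 (chr16:16148928-16223522, minus strand), whose loss causes ectopic calcification through a lack of released ATP, had 0.480, 0.487 and 0.310 RPKM with circAASS and 0.911, 0.827 and 0.991 RPKM with vector. The groups did not overlap, and the log2 fold change was -0.89 with SE 0.19 (limma adjusted p = 0.0104). This value is uncertain, because ABCC6 has near-identical pseudogenes that can share its reads. One of them, ABCC6P1, had 0.182, 0.180 and 0.166 RPKM with circAASS and 0.40, 0.434 and 0.372 RPKM with vector, with a log2 fold change of -0.81 (adjusted p = 0.00625).

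ABCB1 and ABCA1, ranked first and the third among the members by mean RPKM, both fell with circAASS, by similar amounts. ABCB1 (chr7:87503633-87713323, minus strand), which pumps many drugs out through the brush border, had 19.4, 20.001 and 21.2 RPKM with circAASS and 25.4, 26.3 and 26.8 RPKM with vector. The groups did not overlap and rested on 5408 to 6756 reads a library with circAASS and 6648 to 8176 with vector. The means were 20.2 ± 0.931 RPKM with circAASS and 26.2 ± 0.751 RPKM with vector (SD, n = 3 each), a log2 fold change of -0.30 with SE 0.05 (limma adjusted p = 0.00308). ABCA1 (chr9:104781002-104928237, minus strand) had 11.0, 10.3 and 11.8 RPKM with circAASS and 14.6, 14.8 and 14.1 RPKM with vector. Here too all circAASS libraries were below all vector libraries, with means of 11.0 ± 0.747 RPKM with circAASS and 14.5 ± 0.3599 RPKM with vector. The log2 fold change was -0.32 with SE 0.06 (limma adjusted p = 0.00607).

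Sequences just before transcript starts of these genes are shown because ABCB1 and ABCA1 are the most abundant members that fell and their fold changes were alike. Each is the 250 bases upstream of a RefSeq transcript start on GRCh38.p14, read 5′ to 3′ along the gene, with chr7:87600885-87601134 for ABCB1 and chr9:104928156-104928405 for ABCA1, both on the minus strand. The ABCB1 window shown lies before a start inside the annotated gene, and the window at the annotated start is described below. Capitals mark matches to the motifs searched.
ABCB1: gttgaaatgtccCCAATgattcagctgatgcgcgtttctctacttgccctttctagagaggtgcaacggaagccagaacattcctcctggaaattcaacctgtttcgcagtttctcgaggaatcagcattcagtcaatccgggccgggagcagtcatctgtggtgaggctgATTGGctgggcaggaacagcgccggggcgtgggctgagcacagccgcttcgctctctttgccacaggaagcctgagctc
ABCA1: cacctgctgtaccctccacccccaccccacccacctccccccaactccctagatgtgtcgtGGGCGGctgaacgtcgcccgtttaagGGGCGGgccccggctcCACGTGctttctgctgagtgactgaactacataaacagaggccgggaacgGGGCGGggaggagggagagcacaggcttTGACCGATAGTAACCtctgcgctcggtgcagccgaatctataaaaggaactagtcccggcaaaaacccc

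The motifs searched on both strands were the GC box GGGCGG, the CCAAT box CCAAT, the core ACGTG of hypoxia response elements, the core TGACNNNGC of antioxidant response elements, the nuclear receptor site AGGTCA, and GGTNA followed after 5 bases by GGTCA, a direct repeat of the kind that the oxysterol receptors LXR bind. In the ABCB1 window, whose GC content was 55.6%, CCAAT was found at -238 to -234 and, on the reverse strand, at -79 to -75 from the start. In the ABCA1 window, with a GC content of 61.6%, GGGCGG was found 3 times, ACGTG on both strands in overlapping positions from -147 to -142, and the direct repeat on the reverse strand at -69 to -55. Of 35116 windows of this length in the RefSeq table, 42.6% held GGGCGG, 32.0% CCAAT, 18.5% ACGTG, 12.1% AGGTCA, 10.9% TGACNNNGC and 0.216%, or 76 windows, the direct repeat. Of the 38 tested members 29 had an entry, with 44 windows. Of these windows 56.8% held GGGCGG, 27.3% ACGTG, 18.2% CCAAT, 18.2% TGACNNNGC and 6.82% AGGTCA, and that of ABCA1 alone held the direct repeat. The pattern of this repeat leaves a base free, N, in its first site and none in its second. On the reverse strand the first site of ABCA1 reads GGTTA, so a strict repeat of GGTCA would not match it. The rarity of the match holds only for the pattern as written. The other ABCB1 window in the same table, chr7:87713296-87713545, includes the annotated start of the gene and held no match to any of these motifs. ABCC3 and SLCO4A1 had no entry. These matches describe the letters in the windows and not the binding of any factor.

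The other pumps that handle drugs in the proximal tubule were not called. ABCC1, which exports glutathione conjugates, had 5.16, 5.33 and 5.39 RPKM with circAASS and 5.95, 6.57 and 6.05 RPKM with vector. Its groups did not overlap, but the log2 fold change was -0.15 with SE 0.06 (limma adjusted p = 0.104); by library size alone it was called, with an adjusted p of 0.0353. ABCC4, an apical exporter of urate and cyclic nucleotides, had 5.20, 4.85 and 5.61 RPKM with circAASS and 5.15, 5.09 and 5.28 RPKM with vector. Its groups overlapped, and its log2 fold change lay between -0.07 and 0.23 at 95% confidence (adjusted p = 0.364). ABCG2, the apical pump of urate and many drugs, had 0.0430, 0.0213 and 0.0609 RPKM with circAASS and 0.0548, 0.0607 and 0.0708 RPKM with vector. At this low level the interval of its log2 fold change, -0.56 to 0.20, was wide (adjusted p = 0.435). ABCC5 averaged 3.41 ± 0.289 RPKM with circAASS and 3.75 ± 0.0340 RPKM with vector, and ABCB4, which flips phosphatidylcholine across the canalicular membrane of the liver, averaged 0.701 ± 0.0948 RPKM with circAASS and 0.732 ± 0.0637 RPKM with vector. ABCC10 averaged 0.277 ± 0.0292 RPKM with circAASS and 0.326 ± 0.0931 RPKM with vector. ABCC11, which exports conjugates and cyclic nucleotides, averaged 0.0795 ± 0.00795 RPKM with circAASS and 0.154 ± 0.0297 RPKM with vector, with groups that did not overlap (adjusted p = 0.0609). ABCB5 and ABCB11 had at most 6 reads in a library, and ABCC12 had at most 0.00594 RPKM.

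Ratios of a pair of members within a library need no scaling between libraries, but they are built from the values above, so that they describe the same differences and add no evidence for them. ABCC3 stood at 0.438, 0.381 and 0.365 of the RPKM of ABCC1 with circAASS, and at 0.996, 0.980 and 1.02 of it with vector. The level of apical ABCC2 relative to basolateral ABCC3 was 0.0874, 0.189 and 0.205 with circAASS and 0.0336, 0.0235 and 0.0204 with vector. SLC22A4 stood at 1.83, 2.06 and 1.98 of the RPKM of SLC22A5 with circAASS and at 1.05, 1.59 and 1.39 with vector. SLCO4A1 exceeded SLCO4C1 19.8, 22.7 and 23.7 times in RPKM with circAASS and 6.58, 5.19 and 6.45 times with vector. In all 4 ratios the groups did not overlap. The RPKM of ABCB1 was 32.8, 26.8 and 27.7 times that of its neighbour in the family ABCB4 with circAASS and 34.2, 33.3 and 40.4 times with vector, so that the groups did not overlap here either, by a small margin.

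**Figure D4:**
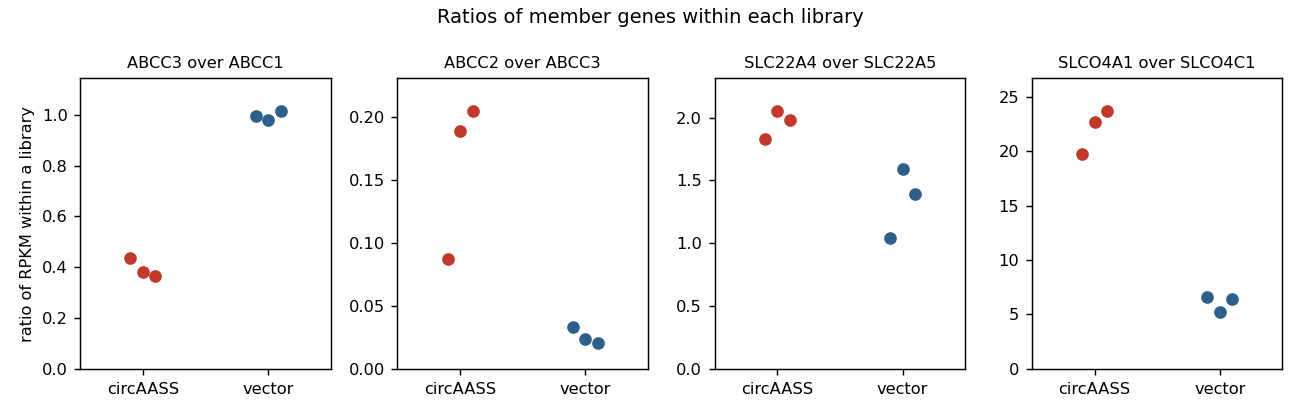
Each point is the ratio of the RPKM of a pair of members within 1 library, circAASS left and vector right, on linear axes from 0. ABCC3 over ABCC1 lies at 0.365 to 0.438 with circAASS and near 1 with vector, and the other 3 ratios are higher in every circAASS library.

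Of the 16 ABC proteins that move lipids 6 were tested, and ABCA1 and ABCA2 fell, where 16.3% of all tested genes fell. ABCA2 (chr9:137007227-137028922, minus strand), a lipid transporter of endosomes and lysosomes, had 0.780, 0.943 and 0.882 RPKM with circAASS and 1.21, 1.29 and 1.21 RPKM with vector. The groups did not overlap, and the log2 fold change was -0.40 with SE 0.11 (limma adjusted p = 0.0310). Its call was lost with any 1 library other than circAASS library 2 left out, with adjusted p of 0.0718 to 0.105. ABCA3, known for packing surfactant lipids in the lung, averaged 2.26 ± 0.265 RPKM with circAASS and 2.77 ± 0.303 RPKM with vector (adjusted p = 0.193). ABCA7 averaged 1.49 ± 0.202 RPKM with circAASS and 1.76 ± 0.155 RPKM with vector, and ABCA5 and ABCA12 had under 1 RPKM in every library. The sterol exporters ABCG1, ABCG4, ABCG5 and ABCG8 and the other ABCA genes were under the read filter, at most at 0.0360 RPKM in any library.

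The 5 ABCB proteins of mitochondria and lysosomes were all tested and 1 of them was called, where 32.3% of all tested genes were called. ABCB6 (chr2:219209766-219219017, minus strand), a porphyrin transporter, had 1.30, 1.33 and 1.32 RPKM with circAASS and 1.21, 0.889 and 0.915 RPKM with vector. The circAASS libraries were almost identical and vector library 1 came close to them, and the log2 fold change was 0.44 with SE 0.14 (limma adjusted p = 0.0436). The value is uncertain, because 54.7% of the ABCB6 exon bases lie in AC068946.2, annotated on the same strand. With any 1 library other than vector library 1 left out the call was lost, with adjusted p of 0.0953 to 0.133. ABCB9 had 20.2, 16.4 and 17.2 RPKM with circAASS and 25.8, 22.0 and 20.5 RPKM with vector, and its groups did not overlap (log2 fold change -0.27, SE 0.12, adjusted p = 0.119); other genes cover 24.5% of its exon bases, so its reads are uncertain too. ABCB10, which supports haem synthesis, averaged 1.36 ± 0.0769 RPKM with circAASS and 1.77 ± 0.319 RPKM with vector (adjusted p = 0.146), and ABCB8 averaged 0.722 RPKM in both groups.

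The ABCD proteins were measured well and none was called. ABCD3 brings fatty acids into peroxisomes, and ABCD4 helps to release vitamin B12 from lysosomes. ABCD4 averaged 4.14 ± 0.225 RPKM with circAASS and 4.15 ± 0.155 RPKM with vector. ABCD3 had 4.25, 4.44 and 4.57 RPKM with circAASS and 4.38, 3.95 and 3.92 RPKM with vector, with overlapping groups and a log2 fold change between 0.02 and 0.35 (limma adjusted p = 0.0855). Of the sulphonylurea receptors, regulatory subunits of ATP-sensitive potassium channels, ABCC9 had 0.485, 0.528 and 0.487 RPKM with circAASS and 0.385, 0.412 and 0.4003 RPKM with vector, with groups that did not overlap (adjusted p = 0.110). ABCC8 had at most 0.0101 RPKM in any library.

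A list of 62 genes, none of them a member, was read beside the transporters, and 61 were in the table and 54 were tested. It holds genes known to control or assist transporters, 7 related ABC proteins and 10 other solute carriers. Together they are termed regulators and partners here. With circAASS 13 rose and 5 fell, and 36 were not called, in a table of which 16.0% of tested genes rose and 16.3% fell. This balance moved with the scaling, since 8 were called higher and 9 lower by library size alone. Their median log2 fold change was 0.07. The scaffold proteins that hold carriers at the brush border moved in opposite directions. SLC9A3R1, which ties membrane transporters to ezrin, had 15.4, 18.0 and 16.7 RPKM with circAASS and 8.52, 7.24 and 7.06 RPKM with vector, a log2 fold change of 1.20 with SE 0.09 (limma adjusted p = 0.00028). PDZK1, a scaffold with several binding sites for transporter tails, had 20.9, 23.4 and 22.9 RPKM with circAASS and 36.6, 37.2 and 36.3 RPKM with vector, a log2 fold change of -0.64 with SE 0.05 (adjusted p = 0.000341). In both genes the groups were widely separate. PDZK1P1, a pseudogene that may share reads with PDZK1, averaged 1.62 RPKM with circAASS and 2.30 RPKM with vector (adjusted p = 0.0784), so the value of PDZK1 is uncertain to that extent. EZR, which encodes ezrin, rose to 394 ± 19.5 RPKM with circAASS, against 320 ± 7.90 RPKM with vector (log2 fold change 0.37, adjusted p = 0.00400), and SLC9A3R2, RDX and MSN were not called.

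Of 21 tested regulators of transcription 5 rose and 2 fell, where 16.0% of all tested genes rose and 16.3% fell. PPARG, a lipid-sensing nuclear receptor that activates ABCA1 transcription through LXR in macrophages, had 2.70, 3.64 and 3.18 RPKM with circAASS and 1.81, 2.02 and 1.77 RPKM with vector (log2 fold change 0.80, SE 0.12, limma adjusted p = 0.00267). SREBF1, which drives fatty acid synthesis genes and is itself a target of LXR, had 5.92, 5.68 and 6.08 RPKM with circAASS and 8.64, 8.58 and 8.16 RPKM with vector (log2 fold change -0.44, SE 0.06, adjusted p = 0.00173). ARNT, the partner of both AHR and the hypoxia-inducible factors, fell to 4.14 ± 0.240 RPKM with circAASS, against 5.60 ± 0.110 RPKM with vector (adjusted p = 0.00635). The other rises included those of NFE2L2, the factor of the antioxidant response, at 12.2 RPKM with circAASS against 10.6 with vector, AHR at 2.74 with circAASS against 2.33 with vector, and PPARA at 0.998 with circAASS against 0.737 with vector. In NFE2L2 and AHR other genes cover 20.9% and 32.3% of the exon bases, so that their reads are uncertain. Leaving out single libraries ended the calls of AHR (without circAASS library 3 or vector library 1 or 2) and of PPARA (with any 1 library but circAASS library 2 left out), with adjusted p of 0.0571 to 0.140. The LXR genes NR1H3 and NR1H2 were not called: NR1H3 averaged 0.869 RPKM with circAASS and 1.20 RPKM with vector (adjusted p = 0.0801), and the log2 fold change of NR1H2 lay between -0.25 and 0.13. HNF4A and the drug receptor NR1I2 averaged 0.0115 RPKM or less in either group and were not tested.

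Among the 8 genes chosen as LXR or cholesterol-export companions of ABCA1 and ABCG1, SCD and LPCAT3 rose, where 16.0% of all tested genes rose. SCD, a fatty acid desaturase, averaged 63.0 ± 2.88 RPKM with circAASS and 59.3 ± 2.17 RPKM with vector, and its groups overlapped (limma adjusted p = 0.0412). LPCAT3, which remodels membrane phospholipids, averaged 3.55 ± 0.411 RPKM with circAASS and 3.01 ± 0.0791 RPKM with vector (adjusted p = 0.0341), and is uncertain because other genes cover 65.6% of its exon bases. Both calls were lost with any 1 library other than circAASS library 2 left out, with adjusted p of 0.0605 to 0.137. MYLIP, APOE, APOA1, APOC1, NPC1 and NPC2 were not called. Of the genes of iron-sulphur cluster and haem synthesis, FECH, which makes haem, averaged 3.21 ± 0.190 RPKM with circAASS and 4.60 ± 0.301 RPKM with vector (adjusted p = 0.00544), and NFS1, which supplies sulphur for the clusters, averaged 1.47 ± 0.119 RPKM with circAASS and 2.16 ± 0.148 RPKM with vector (adjusted p = 0.0138). NFS1 lost its call without vector library 1 (adjusted p = 0.0502). The cluster scaffold ISCU averaged 15.6 ± 0.580 RPKM with circAASS and 14.1 ± 0.695 RPKM with vector (adjusted p = 0.0385), a call lost without circAASS library 1 or 2 or vector library 2 or 3 (adjusted p of 0.0734 to 0.126).

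Of 6 tested ABC proteins outside the rule 3 rose, where 16.0% of all tested genes rose. ABCF2 averaged 25.8 ± 0.654 RPKM with circAASS and 20.4 ± 0.705 RPKM with vector (limma adjusted p = 0.000932), and ABCE1, a ribosome recycling factor, averaged 15.6 ± 1.13 RPKM with circAASS and 13.0 ± 0.161 RPKM with vector (adjusted p = 0.00594). TAP2, which carries peptides into the endoplasmic reticulum, averaged 9.36 ± 0.504 RPKM with circAASS and 7.01 ± 0.330 RPKM with vector (adjusted p = 0.00129). Overlapping genes take 45.8% of the exons of ABCF2 and 32.3% of those of TAP2, so both are uncertain. No gene was called among the peroxisomal import factors PEX3 and PEX19, the channel subunit KCNJ8 or the 6 tested carriers of peptides, bile acids, urate and other solutes.

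**Figure D5:**
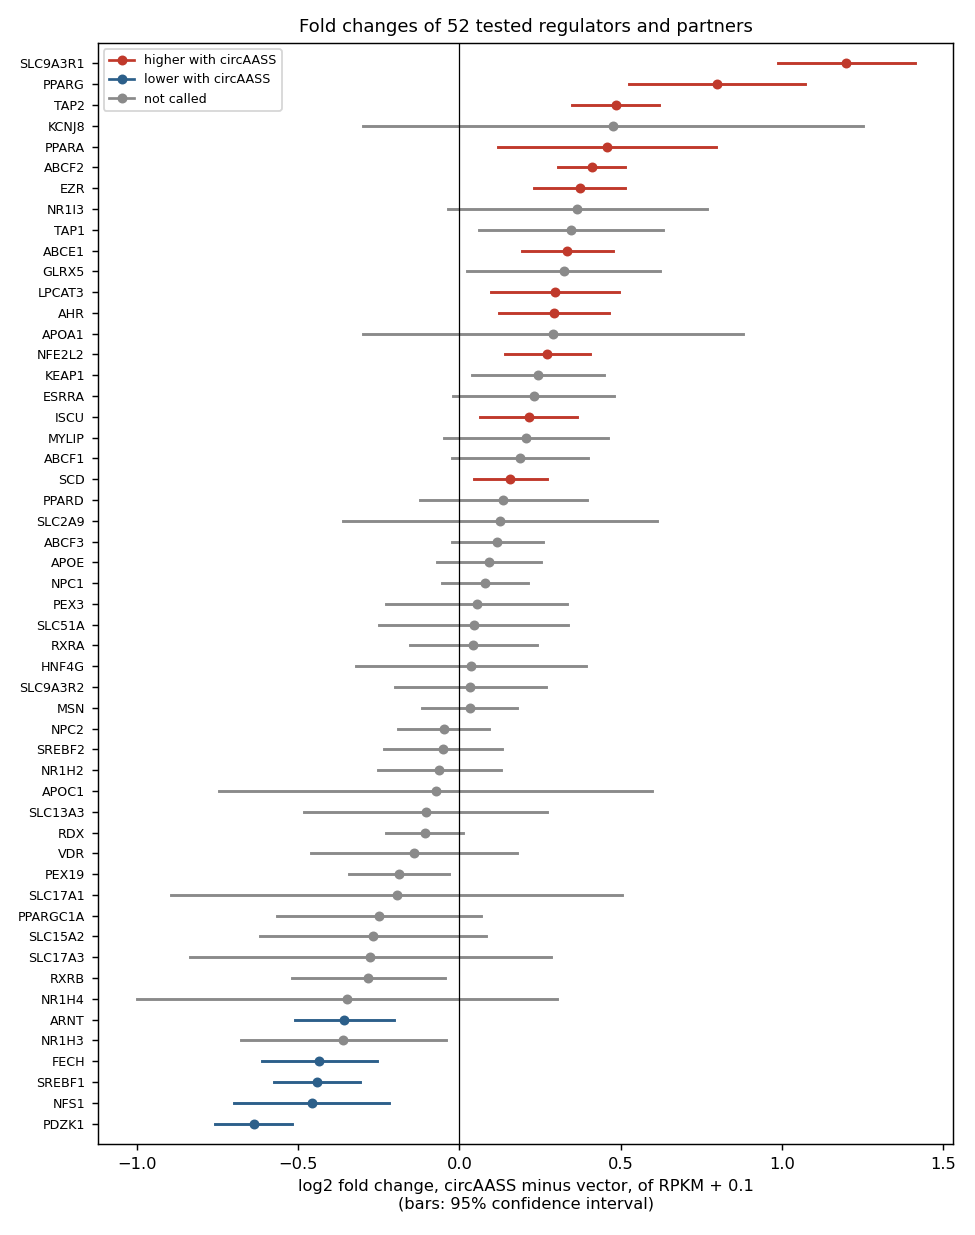
Log2 fold changes of RPKM + 0.1, circAASS minus vector, of 52 of the 54 tested regulators and partners, with 95% confidence intervals from 3 libraries a group. SLC9A3R1 at 1.20 and PDZK1 at -0.64, both scaffolds of brush border carriers, mark the top and the bottom.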

How the data were processed

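The deposited values were RPKM per gene, made by the authors in 6 libraries of HK-2 cells, and every column was matched to a library by its title. The submitters' processing notes name Trimmomatic 0.36, featureCounts, Subread 1.5.1, edgeR 3.12.1 and the build GRCh38. Which aligner, annotation and strand setting were used is not given in the sources used here. Per the labels' protocols, libraries came from a stranded mRNA kit; the series' design text gives 24 h after treatment where the labels give 12 h of reoxygenation.

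Whole reads were worked out from RPKM with GENCODE 29 exon lengths: 22385 of 24697 genes (90.6%) were whole within 0.02 reads in all libraries, and the other genes, 9 of the tested members among them, took the smallest length that gave whole reads. Reads of those genes, the untested ABCC8 and ABCC12 among them, are the fewest that fit, and the filter used them. All whole reads summed to 99.90% to 99.91% of the totals. Low numbers (1 to 20) were even in 78.6% of cases, because mates were mostly counted separately, which makes counting error larger than they imply. No library was a copy of another within its group, as the chi-square per degree of freedom of library pairs was 13.5 to 22.1 with circAASS and 5.80 to 7.80 with vector. By this measure the circAASS libraries differed more from each other. 28 genes named as dates were left out.

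limma 3.58.1 (R 4.3.3) tested log2(RPKM + 0.1) after trimmed-mean scaling (factors 0.958 to 0.996 with circAASS, 1.018 to 1.036 with vector; 30% of ratios and 5% of levels trimmed), with intensity trend and robust variance. Two-sided p-values were adjusted by Benjamini-Hochberg over 19350 genes, with a threshold of 0.05. The 0.1 added understates the fold changes of low genes. The fit was run on simulated counts with the same spread set for all genes and changes placed only in genes with many reads. That run does not check the calls of genes with few reads. Means ± SD are of deposited RPKM. Genes are called uncertain where others cover at least 20% of their exon bases on either strand.

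All members enter the counts; called members and the classical tubule carriers are given in full, and more called regulators and partners are named than the limit of 6 in each direction first set. Results of a few genes are not reported here. The members and lists were chosen with earlier results of these data known. Other scalings, constants, filters, variance models, a replicate block and single libraries left out were tried. Figures used matplotlib 3.10.9.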

Additional observations from a re-analysis of the deposited data

How the results depend on the processing

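Of 15 alternatives, 14 or 15 gave a value for each called gene, and none of the 11 called members or 18 called regulators and partners reversed its direction. Uncalled members near 0 did: with library size alone 8 of the 38 tested members changed sign, ABCB4, ABCB8, ABCD4, SLC22A15, SLCO3A1 and SLCO5A1 among them, and 3 to 5 did without circAASS library 2 or 3 or any 1 vector library. Of the called members ABCC3, SLCO4A1, ABCB1, ABCA1 and ABCC6 kept their calls in every alternative that tested them, as did 11 of the 18 called regulators and partners. Members called higher, 4 in the report, were 2 with library size alone and 1 with no filter on low values. Members called lower, 7 in the report, were 11 with library size alone, 4 with no filter and 4 when a mean of at least 1 RPKM was required, which leaves 20 members. With library size alone ABCC1, ABCB9, ABCC11 and SLC22A17 joined those called lower, and ABCC2 and ABCB6 were lost. Leaving out 1 library gave 1 to 3 higher and 4 to 6 lower members: 1 higher without circAASS library 2 or 3 or vector library 3, 2 higher without vector library 1 or 2, and 4 lower with any 1 vector library left out. Median-of-ratios factors, a constant of 0.01 or 1 RPKM and a fit without trend or robust variance kept both counts within 1.5 times; the fit with voom on the recovered reads, chosen after seeing the data, called 6 higher and 10 lower. Calls over all tested genes moved as well, from 6246 in the report. They were 6182 with library size alone, 4405 with no filter and 5274 with a mean of at least 1 RPKM. With 1 library left out they were 4013 to 5536, and with voom 7545. The planned edgeR and DESeq2 alternatives were not run, since the deposited values are RPKM.

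No pairing by replicate number was seen: deviations of same-numbered libraries correlated at -0.0240 to 0.0227, and not every library correlated best with its own number. All pairs across the groups lay between -0.0447 and 0.0493. These values do not show whether same-numbered libraries shared a day or batch. With a replicate block, 2 members were called higher and 5 lower, ABCB9 among them, and 14 regulators and partners were called. Over all tested genes 5427 were called with the block, against 6246 in the report.

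Called regulators and partners, 13 higher and 5 lower in the report, were 8 higher and 9 lower with library size alone, 8 and 5 with no filter, and 8, 8 and 7 higher without circAASS library 3, vector library 1 and vector library 2. Calls over all tested genes were fewer in each of these fits as well. Depth limits the 39 untested members, at most 24 reads in any library (SLCO1A2); with no filter they were tested too, and the 5 members called there are all among the 11. The spread rests on 3 libraries a group.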
